A study of Mus musculus with 6 samples.

Results

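The 10 genes described here handle zinc in the cell: the metallothioneins Mt1 and Mt2, the zinc-sensing transcription factor Mtf1, the exporters and vesicle transporters Slc30a1, Slc30a5 and Slc30a10, and the importers Slc39a4, Slc39a5, Slc39a8 and Slc39a14. They were picked by name from the 52550 genes listed for each sample, and the question put to them was whether Mt1 moves together with Mt2 and with the other genes that respond to zinc. The genes were picked after the difference between the genotypes had been seen, so that difference is given below as a description, with no p-value for any of the 10.

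The samples were colon epithelial cells from 3 Zfp90fl/fl mice and 3 Zfp90ΔIEC mice. Both groups were male C57BL/6 mice, given as 6 to 8 weeks old in the labels, an age from before the treatment described next, and both carry Zfp90 alleles flanked by loxP sites. In the Zfp90ΔIEC mice Cre under the Villin promoter, which is active in epithelial cells of the gut, deletes part of Zfp90 there. Every mouse of both groups received azoxymethane (AOM, a carcinogen) at 10 mg/kg and, 5 days later, 3 cycles of dextran sulfate sodium (DSS, which injures the colon) at 2% for 7 days followed by 14 days of water, and was killed on day 80. Cells of both groups were released with 2.5 mM EDTA, a chelator of metal ions, and 1 mM DTT for 20 min before RNA extraction. The mice were housed apart by genotype, so cage and genotype cannot be told apart.

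Metallothioneins are small cysteine-rich proteins that bind zinc and copper and buffer them in the cell. When free zinc rises, Mtf1 binds metal response elements in promoters and raises transcription of Mt1, Mt2 and Slc30a1, which is why these genes are read together as a gauge of cellular zinc. The Slc30 family moves zinc or manganese out of the cytosol, and the Slc39 family moves metal ions into it.

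The promoters of the genes that stood highest above the Zfp90fl/fl mice, and that of Slc30a1 as the textbook zinc-responsive exporter, are shown first, because a metal response element is the sequence these genes are known to share. They are from RefSeq on GRCm38.p6 and run 5′ to 3′ over the 250 bases before the annotated start, with capitals marking matches to TGCACNC or TGCGCNC on either strand.
Mt1, chr8:94178839-94179088, + strand: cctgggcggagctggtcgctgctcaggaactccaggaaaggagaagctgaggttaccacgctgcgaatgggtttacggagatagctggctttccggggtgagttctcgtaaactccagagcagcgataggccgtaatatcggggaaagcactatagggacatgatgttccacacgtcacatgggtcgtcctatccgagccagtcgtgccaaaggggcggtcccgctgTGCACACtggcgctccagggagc
Mt2, chr8:94172368-94172617, + strand: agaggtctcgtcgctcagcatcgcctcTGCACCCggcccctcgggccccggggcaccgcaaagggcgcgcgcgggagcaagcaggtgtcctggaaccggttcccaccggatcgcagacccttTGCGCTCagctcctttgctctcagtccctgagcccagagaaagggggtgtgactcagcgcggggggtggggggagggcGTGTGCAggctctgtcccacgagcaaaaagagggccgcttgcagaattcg
Slc30a10, chr1:185454598-185454847, + strand: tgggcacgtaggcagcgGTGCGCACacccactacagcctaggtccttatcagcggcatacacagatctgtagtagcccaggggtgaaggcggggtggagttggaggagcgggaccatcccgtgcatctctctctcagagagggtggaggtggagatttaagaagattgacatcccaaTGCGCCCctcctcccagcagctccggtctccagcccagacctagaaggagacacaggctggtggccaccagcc
Slc30a1, chr1:191906531-191906780, + strand: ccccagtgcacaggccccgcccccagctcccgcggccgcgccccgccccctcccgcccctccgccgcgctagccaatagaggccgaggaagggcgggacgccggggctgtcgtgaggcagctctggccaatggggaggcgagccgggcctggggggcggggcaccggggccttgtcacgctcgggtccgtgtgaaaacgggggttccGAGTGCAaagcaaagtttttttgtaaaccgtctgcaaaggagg
In Mt1 and Mt2 further matches lie just after the start, and the first 30 bases of both are given for that reason.
Mt1, chr8:94179089-94179118, + strand: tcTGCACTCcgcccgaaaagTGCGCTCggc
Mt2, chr8:94172618-94172647, + strand: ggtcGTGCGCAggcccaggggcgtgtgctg

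Counted over windows of 300 bases, 250 before and 50 after the start, Mt1 held 3 matches and Mt2 held 4. In Mt1 they began 23 bases before the annotated start and at bases 2 and 20 after it. In Mt2 they began 223, 128 and 50 bases before the start and at base 4 after it. Slc30a10 also held 3, but 2 of them, 233 and 232 bases before the start, are the same palindromic letters read on opposite strands. Slc30a1 held 2, of which the one at base 30 after the start is not within the letters printed. Slc30a5 held 1, Slc39a5 and Slc39a8 held 1 in 1 of their 2 windows each, and Mtf1 held 0. Windows were given for 8 of the 10 genes, 10 windows in all, and Slc39a4 and Slc39a14 had no entry. Of all 32851 windows in the table, 25.7% held at least 1 match, 7.11% at least 2, 1.97% at least 3 and 0.518% at least 4. Among the 10716 windows of tested genes 3.22% held at least 3. These are matches of letters and not measured binding. The windows end 50 bases after an annotated start, so matches further along were not counted. The counts and positions of the matches in Mt1 and Mt2 depend on where that start is placed, and nothing is read from the difference in counts. Whether transcription begins there in these cells was not tested, so matches after an annotated start need not lie within the transcript.

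Expression was measured as FPKM, that is fragments scaled by transcript length in kilobases and by the mapped fragments in M, which allows levels to be compared between genes. The deposited values give no depth, but the steps between low values put it at 26.1 to 28.6 M fragments per sample, similar in both groups. For 2 of the Zfp90ΔIEC samples, replicates 2 and 3, the genotype field of the labels names another gene number, and they were grouped by their titles. Zfp90 itself stood at 0.630, 0.490 and 0.569 FPKM in the Zfp90fl/fl mice and at 0.0846, 0.195 and 0.166 FPKM in the Zfp90ΔIEC mice, so all 3 libraries labelled Zfp90ΔIEC were lower than every control. Zfp90 was below 1 FPKM in every sample, at an estimated 5.07 to 36.0 fragments, and so was not tested. Values are also given without those 2 samples, which leaves 1 Zfp90ΔIEC mouse, so the spread then comes from the controls alone and these values are given with no call. A gene was tested when at least 3 samples reached 1 FPKM, which 11564 genes did, and a gene was counted as past the threshold at an adjusted p under 0.05 in limma with Benjamini-Hochberg adjustment over all of them.

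All 10 zinc genes passed the filter on low values, and 1 of them, Mt1, was past the threshold, higher in the Zfp90ΔIEC mice. Over all tested genes 0.199% were past the threshold in either direction, 0.0692% higher and 0.13% lower, which are 23, 8 and 15 genes. Samples of both genotypes did not overlap for 3 of the 10 (Mt1, Mt2 and Slc30a10, all higher in the Zfp90ΔIEC mice), against 21.3% of all tested genes, of which 8.73% were higher and 12.6% lower. Since the same contrast served to pick the genes, nothing is read from these counts. The log2 fold change, Zfp90ΔIEC over Zfp90fl/fl on the log2(FPKM + 1) scale, was above 0 for 7 genes and below 0 for 3, with a median of 0.18, or 0.16 without Mt1, beside a median of -0.02 over all tested genes.

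**Figure D1:**
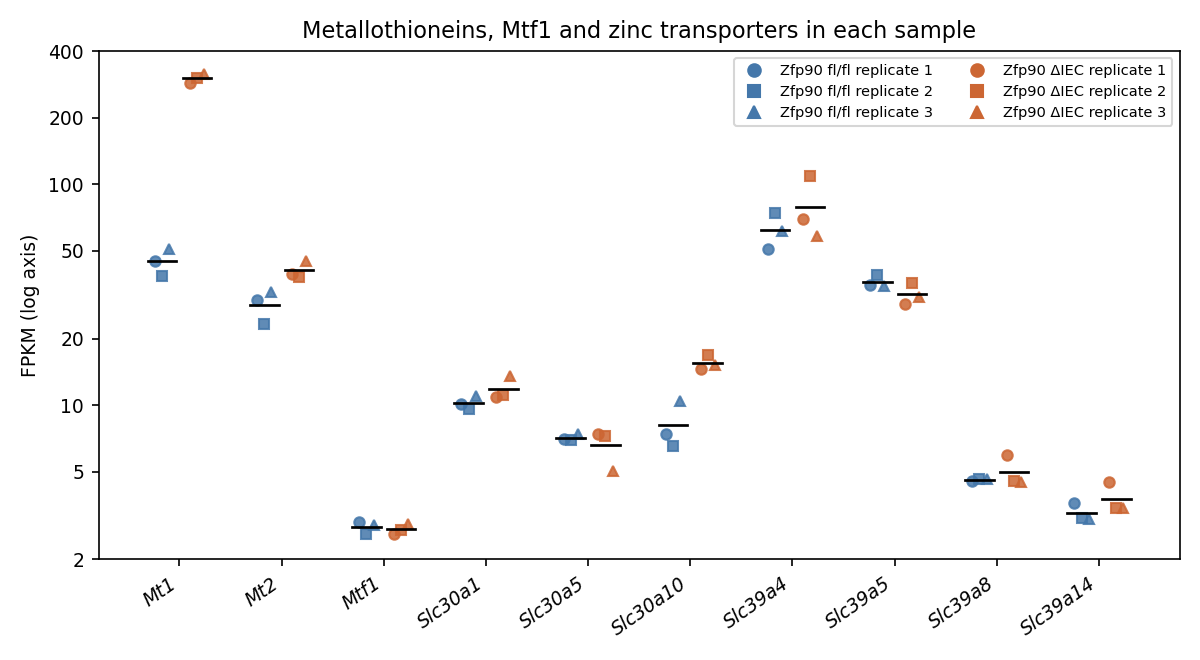
FPKM (log axis) of the 10 zinc genes in each of the 6 samples, with a symbol for each replicate number, colour for genotype and a black line at the mean of 3 mice. Mt1 went from 44.8 to 303 FPKM on average, Mt2 and Slc30a10 also have no overlap between genotypes, and the points of the other 7 genes overlap.

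Mt1 (ENSMUSG00000031765, chromosome 8, 94179082 to 94180327 in GRCm38) had 45.1, 38.5 and 50.9 FPKM in the controls, in the order of replicates 1 to 3, and 288, 304 and 317 FPKM in the Zfp90ΔIEC mice. Every Zfp90ΔIEC sample lay far above every control, and the 3 Zfp90ΔIEC values were close to one another. The mean rose from 44.8 ± 6.17 to 303 ± 14.6 FPKM (SD, n = 3 each), a ratio of 6.76, and the log2 fold change was 2.74 (SE 0.102, 95% interval 2.50 to 2.98). It ranked first in log2 fold change among the 11564 tested genes. Its level moved from the 91.5th to the 99.1th percentile of tested genes, so an already abundant transcript became one of the most abundant in the epithelium. Even the lowest sample rests on an estimated 591 fragments. Without the 2 samples with a deviating genotype field the log2 fold change was 2.66, from the 1 remaining Zfp90ΔIEC mouse.

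Mt2 (ENSMUSG00000031762, chromosome 8, 94172664 to 94173568), which encodes the other metallothionein found in most tissues, stood at 29.8, 23.2 and 32.6 FPKM in the Zfp90fl/fl mice and at 39.3, 38.2 and 44.8 FPKM in the Zfp90ΔIEC mice. The groups did not overlap, but the gap between them was small beside that of Mt1. The means were 28.5 ± 4.79 and 40.7 ± 3.57 FPKM (SD, n = 3 each), a ratio of 1.43. The log2 fold change of 0.51 (SE 0.128, 95% interval 0.21 to 0.81) was not past the threshold and ranked 135th. Without the 2 samples named above it was 0.46.

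Mt1 and Mt2 thus differed by unequal factors between the genotypes. Mt1 made up 60.2%, 62.4% and 61.0% of the summed FPKM of both genes in Zfp90fl/fl replicates 1, 2 and 3, and 88.0%, 88.9% and 87.6% in Zfp90ΔIEC replicates 1, 2 and 3. The shares were nearly constant within a genotype and far apart between them. The mean share was 61.2% ± 1.09 in the Zfp90fl/fl mice and 88.2% ± 0.638 in the Zfp90ΔIEC mice (SD, n = 3 each), a difference of 27.0 percentage points, or 26.8 without the 2 samples. As a ratio, Mt1 over Mt2 was 1.58 ± 0.0733 in the Zfp90fl/fl mice and 7.46 ± 0.464 in the Zfp90ΔIEC mice. Both genes summed came to 73.4 ± 10.9 and 344 ± 17.3 FPKM, 4.69 times as much in the Zfp90ΔIEC mice.

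**Figure D2:**
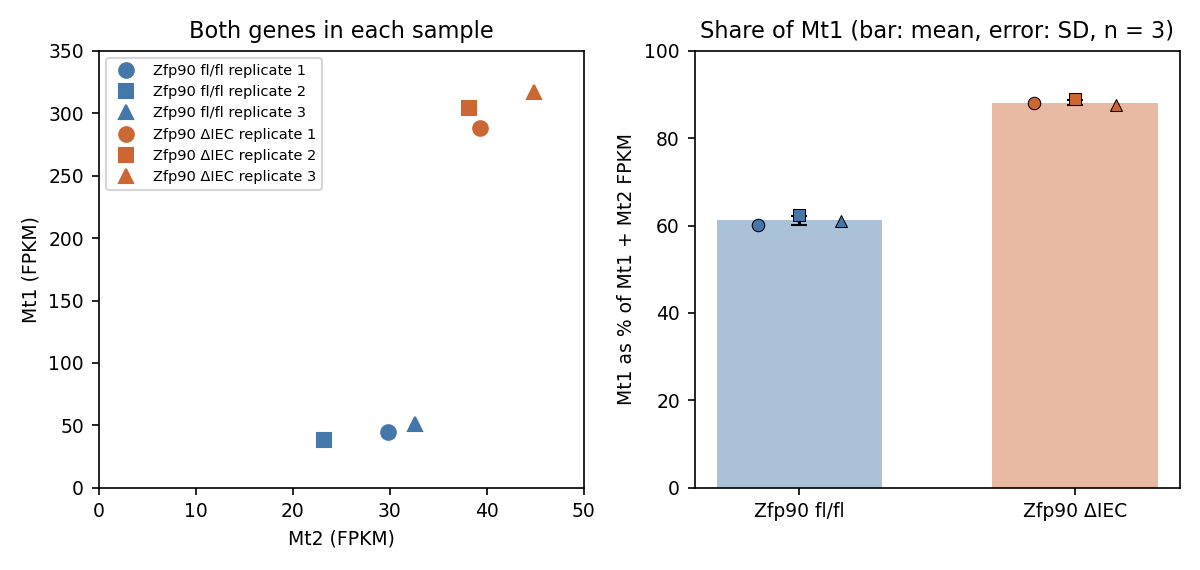
Left, FPKM of Mt1 (vertical) against Mt2 (horizontal) in each sample. Right, Mt1 as a percent of Mt1 + Mt2 FPKM, where bars are means, error bars are SD and points are the 3 mice of each genotype. The Zfp90ΔIEC samples lie straight above the controls more than to the right of them, and the share goes from 61.2% to 88.2%.

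Shared reads could blur a pair of related genes, so the annotated transcripts were compared. The longest run of identical bases between any Mt1 and any Mt2 transcript was 20 nt, and 0 of the 1272 words of 30 nt in the Mt1 transcripts occurred in a transcript of another gene. For Mt2 it was 4 of 574 words, in Pip5k1a. Words were compared on the transcript strand only, so overlap with antisense genes is not covered by these counts. The antisense gene Gm45774, which overlaps Mt2, stood at 0.201 ± 0.0613 and 0.301 ± 0.130 FPKM (SD, n = 3 each), far below Mt2. Both metallothionein transcripts are short, at 549 to 1085 nt for Mt1 and 388 to 511 nt for Mt2, so their FPKM depends on how length was handled in quantification.

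Among mice of the same genotype, Mt1 and Mt2 deviated from their genotype mean in the same direction in 5 of 6 samples, on the log2(FPKM + 1) scale. In the Zfp90fl/fl mice the deviations of Mt1 were 0.02, -0.20 and 0.19, and those of Mt2 were 0.07, -0.27 and 0.20. In the Zfp90ΔIEC mice they were -0.07, 0.01 and 0.07 for Mt1, and -0.05, -0.09 and 0.14 for Mt2. The control with the lowest Mt1 was thus also the one with the lowest Mt2, and replicate 3 held the highest value of both genes in either genotype. The count depended on scaling, and was 3 of 6 after quantile normalization. The sign matched that of Mt1 in 5 samples for Mtf1, in 4 for Slc30a1 and Slc30a10, and in 1 to 3 for the Slc39 genes and Slc30a5. The 3 deviations within a genotype sum to 0, so the 6 signs are not independent. How many of all tested genes matched Mt1 in as many samples was not counted, so nothing is read from these counts.

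Mtf1, which would sense the zinc that metallothioneins buffer, was itself at 2.97, 2.60 and 2.87 FPKM in the Zfp90fl/fl mice and at 2.62, 2.72 and 2.88 FPKM in the Zfp90ΔIEC mice. The ranges lay within one another. The log2 fold change was -0.03 (SE 0.0682, 95% interval -0.19 to 0.13), and this interval leaves room for differences of that size only. It concerns transcript level, since activation of Mtf1 by zinc acts on the protein.

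Slc30a1, the zinc exporter of the plasma membrane and a known Mtf1 target, was at 10.1, 9.57 and 11.0 FPKM in the Zfp90fl/fl mice and at 10.9, 11.2 and 13.6 FPKM in the Zfp90ΔIEC mice. The groups overlapped, with Zfp90ΔIEC replicate 3 above all other samples. The ratio of means was 1.16 and the log2 fold change 0.19 (SE 0.0956, 95% interval -0.03 to 0.42), so the upper end of its interval lies far below the lower end of that of Mt1. Without replicates 2 and 3 of the Zfp90ΔIEC mice it was 0.08.

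Slc30a10, known foremost as a manganese exporter, had the second largest log2 fold change of the 10 genes. It was measured at 7.37, 6.55 and 10.4 FPKM in the Zfp90fl/fl mice and at 14.6, 16.9 and 15.2 FPKM in the Zfp90ΔIEC mice, with no overlap and with the widest relative spread in the controls, where replicate 3 was the highest. The means were 8.11 ± 2.02 and 15.6 ± 1.21 FPKM (SD, n = 3 each), a ratio of 1.92. Its log2 fold change of 0.88 (SE 0.151, 95% interval 0.53 to 1.24) ranked 32nd and was not past the threshold. It was past it only when Zfp90fl/fl replicate 3 was left out, with a value of 1.06. Without the 2 Zfp90ΔIEC samples it was 0.80, again from 1 mouse.

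Slc30a5, which loads zinc into the secretory pathway, was at 6.99, 6.98 and 7.42 FPKM in the Zfp90fl/fl mice and at 7.42, 7.26 and 5.05 FPKM in the Zfp90ΔIEC mice. One sample, Zfp90ΔIEC replicate 3, stood below the other 5, which were close together. The log2 fold change of -0.12 (SE 0.129, 95% interval -0.42 to 0.19) turned to 0.04 without that sample and to 0.05 without the 2 samples. The transcripts of Slc30a5 share 3.27% of their 30 nt words with those of other genes, the most of the 10.

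Among importers, Slc39a4, the apical zinc importer of the intestine that is known to fall when zinc is plentiful, was the most abundant. It was measured at 50.8, 73.8 and 61.7 FPKM in the Zfp90fl/fl mice and at 69.7, 110 and 58.2 FPKM in the Zfp90ΔIEC mice. The groups overlapped widely and replicate 2 was the highest in both. The log2 fold change was 0.31 with the widest error of the 10 genes (SE 0.239, 95% interval -0.26 to 0.88), so these data can show neither a fall nor a rise of it.

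Slc39a5, an importer of the basolateral membrane, was at 35.1, 39.0 and 34.5 FPKM in the Zfp90fl/fl mice and at 28.8, 35.7 and 31.004 FPKM in the Zfp90ΔIEC mice. Its log2 fold change of -0.18 (SE 0.0913, 95% interval -0.40 to 0.03) was the lowest of the 10, the groups overlapped through Zfp90ΔIEC replicate 2, and replicate 2 was the highest in both genotypes, as for Slc39a4. Without the 2 samples it was -0.32.

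Slc39a8 and Slc39a14, which carry zinc and also manganese or iron into cells, were highest in the same mouse. Slc39a8 was at 4.55, 4.61 and 4.62 FPKM in the Zfp90fl/fl mice and at 5.96, 4.51 and 4.49 FPKM in the Zfp90ΔIEC mice. Slc39a14 was at 3.59, 3.06 and 3.06 FPKM in the Zfp90fl/fl mice and at 4.49, 3.41 and 3.40 FPKM in the Zfp90ΔIEC mice. Zfp90ΔIEC replicate 1 stood above all others for both, and without it the Slc39a8 values of the Zfp90ΔIEC mice lay just below the controls and those of Slc39a14 among them. The log2 fold changes were 0.09 (SE 0.10, 95% interval -0.15 to 0.33) for Slc39a8 and 0.16 (SE 0.107, 95% interval -0.09 to 0.42) for Slc39a14, and that of Slc39a8 was -0.02 without replicate 1.

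**Figure D3:**
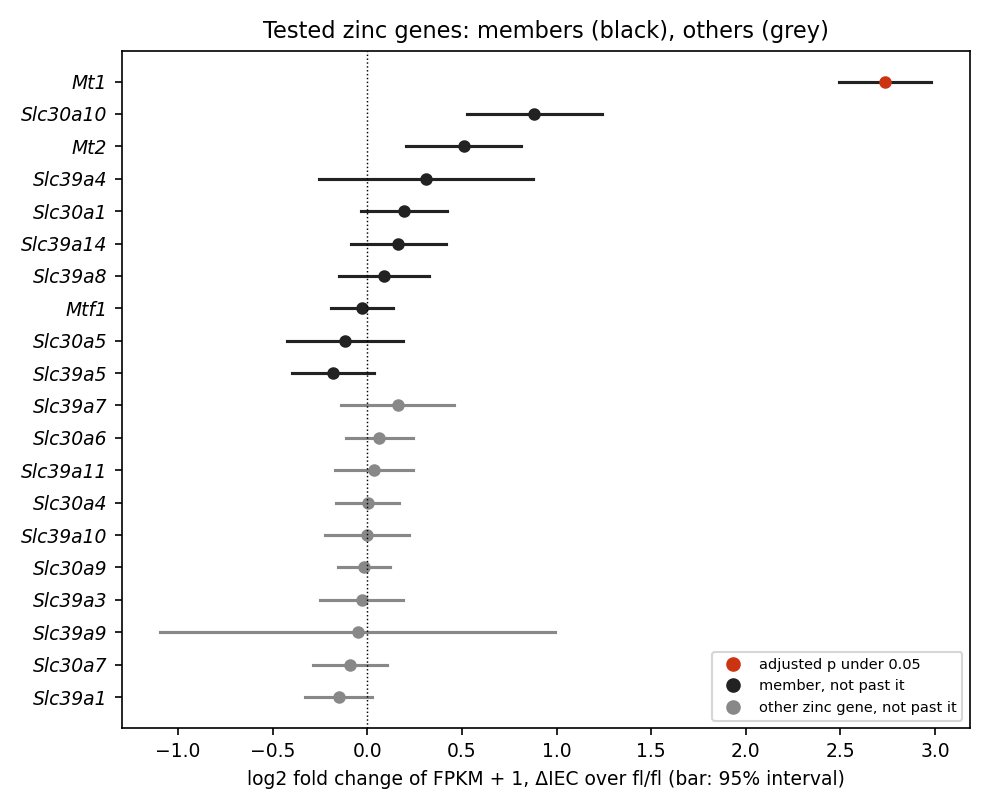
Log2 fold change of FPKM + 1 (Zfp90ΔIEC over Zfp90fl/fl) with its 95% interval for the 10 zinc genes (black, or red where past the threshold) and the 10 other zinc genes that were tested (grey). Mt1 at 2.74 stands apart from all others, whose values lie between -0.18 and 0.88.

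The order of levels also differed between genotypes. In the Zfp90fl/fl mice it ran Slc39a4 (62.1 FPKM), Mt1 (44.8), Slc39a5 (36.2), Mt2 (28.5), Slc30a1 (10.2), Slc30a10 (8.11), Slc30a5 (7.13), Slc39a8 (4.59), Slc39a14 (3.24) and Mtf1 (2.81). Of these, Mt1 overlapped with both Slc39a4 and Slc39a5, and Slc30a10 with both Slc30a1 and Slc30a5. In the Zfp90ΔIEC mice Mt1 led at 303 FPKM with no overlap with Slc39a4 at 79.2 FPKM, followed by Mt2 at 40.7 and Slc39a5 at 31.9 FPKM. Slc30a10 at 15.6 FPKM then stood above Slc30a1 at 11.9 FPKM without overlap. Below them Slc39a8 at 4.99 FPKM overlapped with both Slc30a5 at 6.58 and Slc39a14 at 3.77 FPKM, and Mtf1 was last at 2.74 FPKM.

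The other metallothioneins and zinc transporters of the mouse were taken as a list of 19 genes. Of them 10 were tested, 0 were past the threshold in limma in either direction (0 also at an unadjusted p under 0.05, which 1694 of all tested genes, 14.6%, reached), and their median log2 fold change was -0.01, from -0.15 for Slc39a1 to 0.16 for Slc39a7, importers of which the second releases zinc from the endoplasmic reticulum. Counting the transporters of both lists, 17 of 24 were tested and the median was 0.00. Slc39a9 varied most, with a 95% interval from -1.09 to 0.99.

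Mt3 and Mt4, the remaining genes of the metallothionein cluster, were below the filter. Mt3, best known from the brain, stood at 0.550, 0.526 and 0.677 FPKM in the Zfp90fl/fl mice and at 1.42, 1.17 and 0.889 FPKM in the Zfp90ΔIEC mice. Those samples do not overlap, at levels too low for the test. Mt4, a gene of stratified epithelia, was listed at 0 in 5 samples and at 0.104 FPKM in 1 control.

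Mt1 and Mt2 are neighbours, with 5514 bp between them, on the chromosome that also carries Zfp90, which lies 12.2 Mb further along. Of the 36 genes listed within 500 kb of Mt1, 14 were tested and 0 were past the threshold in limma. Leaving out Mt2, the 13 others, 2 of them at an unadjusted p under 0.05, had a median log2 fold change of -0.10, from -0.30 for Fam192a to 0.14 for Herpud1, a gene of endoplasmic reticulum stress. The nearest tested gene on the other side of Mt1, the nuclear pore gene Nup93, was at 6.54 ± 0.427 FPKM in the Zfp90fl/fl mice and 7.12 ± 0.494 FPKM in the Zfp90ΔIEC mice (SD, n = 3 each). Samples of the genotypes did not overlap for Cpne2 and Fam192a, both lower in the Zfp90ΔIEC mice, which is 2 of 13 beside 12.6% of all tested genes.

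**Figure D4:**
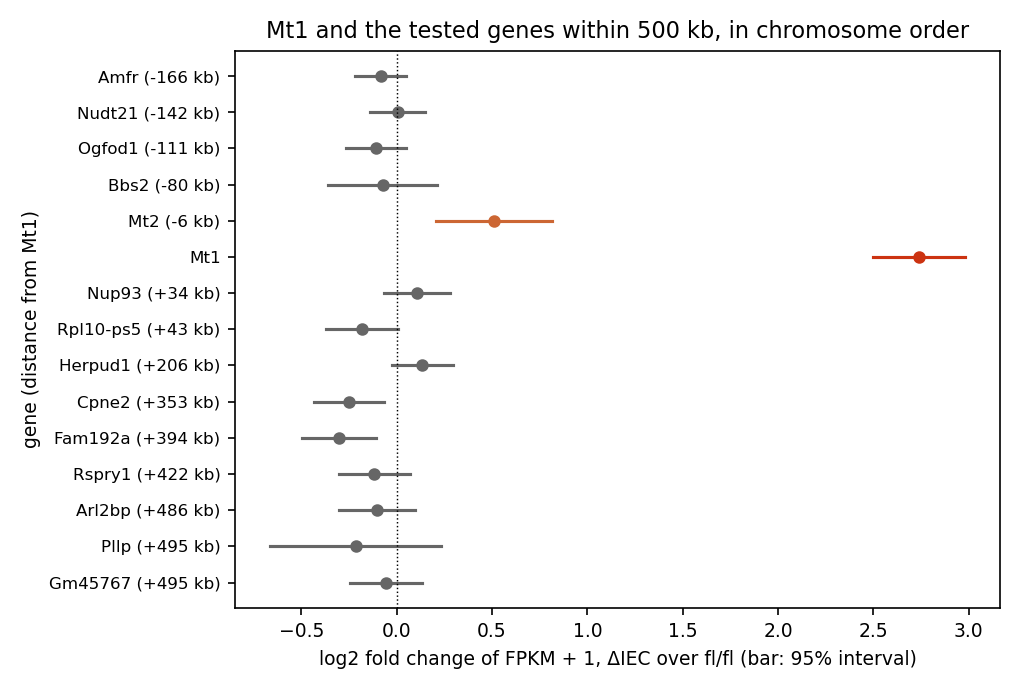
Log2 fold change of FPKM + 1 (Zfp90ΔIEC over Zfp90fl/fl) with its 95% interval for Mt1 and the 14 tested genes within 500 kb, in chromosome order from top to bottom with the distance from Mt1 in kb. Mt1 is at 2.74 and Mt2 at 0.51, while the 13 others lie between -0.30 and 0.14.

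The genes whose profile over the 6 samples was most like that of Mt1 were found by the root mean square distance of centred log2(FPKM + 1). The nearest were Cyp2c55, a cytochrome P450 (distance 0.374), Rell1 (0.470), S100g, a calcium-binding protein of the intestine (0.599), Gm33424 (0.637) and Cyp4b1, another cytochrome P450 (0.731). Cyp2c55 stood at 207 ± 24.9 FPKM in the Zfp90fl/fl mice and 912 ± 210 FPKM in the Zfp90ΔIEC mice, and Rell1 at 2.60 ± 0.377 and 12.3 ± 0.267 FPKM (SD, n = 3 each). Genes chosen for likeness to Mt1 must differ between genotypes, so no test is given for them. Mt2 ranked 100th of the 11564 tested genes in likeness to Mt1, at a distance of 1.12, where a flat profile would be at 1.37.

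Near to Mt2 in profile were Dio1 (0.0613), which activates thyroid hormone, Sult1a1 (0.0711), a sulfotransferase, 1810049J17Rik (0.0860) and Cdk1 (0.0991), a cell cycle kinase. Dio1 stood at 15.0 ± 1.91 FPKM in the Zfp90fl/fl mice and 20.9 ± 2.78 FPKM in the Zfp90ΔIEC mice. Mt1 ranked 11543rd in likeness to Mt2, on a measure that weighs the size of a difference and so places the gene with the largest one far from most others.

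Metallothioneins are also known to respond to copper, glucocorticoids, oxidative stress and inflammatory cytokines, and lists for each were read beside them. In limma, 0 genes of these lists were past the threshold in either direction, while an unadjusted p under 0.05 was reached by 1 copper gene, 4 glucocorticoid genes, 1 Nrf2 gene and 3 STAT3 and acute phase genes, beside 14.6% of all tested genes. Of the copper genes 8 of 10 were tested, with a median log2 fold change of -0.04. The largest differences were those of Ccs, the copper chaperone of superoxide dismutase, at 0.26 (33.3 ± 1.31 and 40.2 ± 3.94 FPKM, SD, n = 3 each), and Atp7a, a copper exporter, at -0.15.

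Of the glucocorticoid genes 11 of 12 were tested, with a median of 0.03. The samples of Pdk4, Sgk1 and Fkbp5 were higher in the Zfp90ΔIEC mice without overlap and those of Cebpd lower, which is 3 and 1 of 11 beside 8.73% and 12.6% of all tested genes. Pdk4, which restrains glucose oxidation, stood at 6.95 ± 1.28 and 10.8 ± 1.24 FPKM (SD, n = 3 each; log2 fold change 0.58), and Sgk1, a kinase of sodium transport, at 27.2 ± 1.84 and 38.2 ± 4.09 FPKM (0.47). Of the 11 tested genes, 6 had a log2 fold change above 0 and 5 below. A link of these genes to Mt1 or Mt2 was not tested.

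Of the oxidative stress genes driven by Nrf2, 10 of 11 were tested with a median of -0.03. The log2 fold change was above 0 for 5 and below 0 for 5, and the 2 largest differences were below 0. Srxn1, which repairs peroxiredoxins, had a log2 fold change of -0.68. That of Gclm, a subunit of glutathione synthesis, was -0.47 with a 95% interval from -1.50 to 0.57. Gclm stood at 10.1, 11.9 and 10.9 FPKM in the Zfp90fl/fl mice and at 13.1, 10.6 and 2.98 FPKM in the Zfp90ΔIEC mice. Its lower mean thus rested on Zfp90ΔIEC replicate 3. Of the STAT3 and acute phase genes 7 of 10 were tested, with a median of -0.33 and 6 values below 0. Samples did not overlap for 3 of the 7, Socs3, Stat3 and Saa3, all lower in the Zfp90ΔIEC mice. Of all tested genes, 12.6% were lower there without overlap. The largest differences were those of the serum amyloid genes Saa3 (1.82 ± 0.517 and 0.486 ± 0.319 FPKM, log2 fold change -0.93) and Saa1 (114 ± 36.0 and 69.6 ± 37.0 FPKM, -0.78; SD, n = 3 each).

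**Figure D5:**
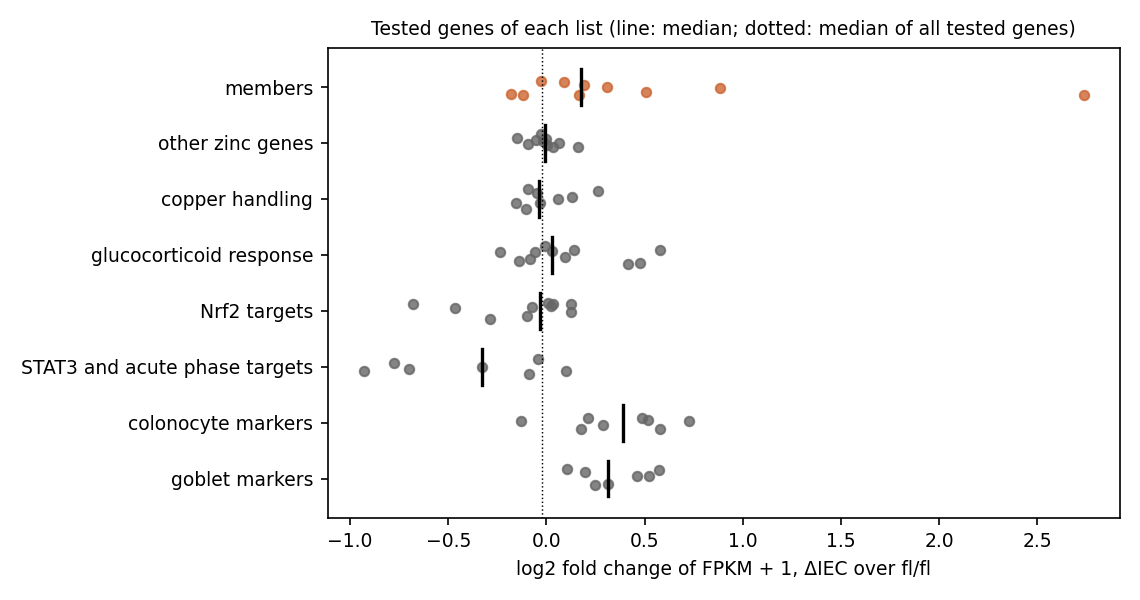
Log2 fold change of FPKM + 1 (Zfp90ΔIEC over Zfp90fl/fl) of each tested gene in the lists, with a black line at the median of each list and a dotted line at the median of all tested genes (-0.02). The 10 zinc genes (members, orange) spread furthest to the right through Mt1, and the STAT3 and acute phase genes have the lowest median, -0.33.

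Sums of markers of several epithelial cell types did not overlap between genotypes. The summed FPKM of 8 markers of colonocytes, which also express metallothioneins, was 5514 to 7340 in the Zfp90fl/fl mice. In the Zfp90ΔIEC mice it was 8226 to 12400, 1.58 times as high on average. Car1 made up most of this sum, and without it the ratio was 1.31. The ratio of means was 6.76 for Mt1 and 1.43 for Mt2. All 8 colonocyte markers were detected in every sample and 7 had a higher mean in the Zfp90ΔIEC mice. In limma 0 were past the threshold and 5 were at an unadjusted p under 0.05, which 14.6% of all tested genes reached. The sum of 7 goblet cell markers was 2061 to 2508 and 2680 to 3601 FPKM, that of 5 stem and cycling markers 42.5 to 44.7 and 53.1 to 55.9 FPKM, and that of 5 enteroendocrine markers 89.2 to 100.2 and 106 to 131 FPKM. In limma 0 of the 7 goblet cell markers and 0 of the 4 tested enteroendocrine markers were past the threshold. An unadjusted p under 0.05 in limma was reached by 2 of the 7 and 3 of the 4, beside 14.6% of all tested genes. Among tested markers, 5 of 8 colonocyte, 3 of 7 goblet cell, 3 of 4 enteroendocrine and 2 of 3 stem and cycling markers did not overlap. All of these were higher in the Zfp90ΔIEC mice, as were 8.73% of all tested genes without overlap. Of the stem and cycling markers 3 were tested. Mki67, a gene of dividing cells, rose (log2 fold change 0.41, SE 0.0512). It was only just past the threshold, at an adjusted p of 0.0478 in limma. The log2 fold changes of the others were 0.31 for Top2a and -0.31 for Axin2, not past it, and, below the filter, 0.00 for Lgr5 and 0.03 for Ascl2. The part of these cell types in the differences of Mt1 and Mt2 was not tested. In bulk samples, fewer cells of a type and less RNA per cell cannot be told apart.

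Sums of markers of immune and stromal cells, and of tuft cells of the epithelium, were low, apart from that of neutrophils, which rested on the gene Ly6g. The 6 macrophage markers summed to 7.05 to 9.58 FPKM in the Zfp90fl/fl mice and 3.12 to 4.30 FPKM in the Zfp90ΔIEC mice, and the 5 markers of B and plasma cells to 0.630 to 0.871 and 0.123 to 0.263 FPKM. Those of 5 neutrophil markers overlapped at 25.2 to 47.2 and 21.9 to 33.0 FPKM and were mostly Ly6g. The neutrophil genes S100a8, S100a9 and Cxcr2 were at 0 in the 3 Zfp90ΔIEC samples. In the controls they were at only 0.236 to 0.466, 0.476 to 1.62 and 0.0117 to 0.128 FPKM. Csf3r was at 0.260 to 0.277 FPKM in the controls and at 0 to 0.0180 FPKM in the Zfp90ΔIEC mice. All of these were below the filter and not tested. The 5 T cell markers summed to 1.12 to 2.63 and 1.03 to 1.48 FPKM and the 5 tuft cell markers to 1.16 to 1.49 and 0.557 to 1.03 FPKM, with Il25 at 0 in all samples. The sums for fibroblasts (0.221 to 0.409 and 0.120 to 0.628 FPKM, 5 markers), smooth muscle (0.412 to 1.01 and 1.07 to 1.17 FPKM, 5 markers) and endothelium (0.347 to 0.488 and 0.518 to 0.603 FPKM, 4 markers) were at or near 1 FPKM or less.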

How the data were processed

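RNA of the colon epithelium of 6 mice was sequenced from stranded libraries, and the authors deposited 1 FPKM value per gene and sample. The files carry no unit, which was taken from the methods and the range of the values. The submitters' processing notes name FastQC, STAR 2.5, Cuffnorm, DESeq 1.22.1 and mm9, whereas the study's methods name TopHat, Cuffdiff and a human genome, and the identifiers are of mouse genes, so the pipeline used is not certain. Whether strand was used in quantification is not given in the sources used here. The DSS dose and age follow the labels, from which the study's methods differ. Of 52550 identifiers, 52403 had a symbol in GENCODE M21 (GRCm38) and 147 had none.

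From the deposited FPKM, log2(FPKM + 1) was fitted with limma 3.58.1 (with an intensity trend, 2-sided) in R 4.3.3, for genes that reached 1 FPKM in 3 or more samples, with Benjamini-Hochberg adjustment and a threshold of 0.05. The fit was tested on simulated data. Genes below the filter take their values from the fit without it. SD and p-values measure the spread between these samples, 3 per genotype, which the labels do not tie to litters. Groups follow the titles. Depth was estimated from the steps between low values of genes with 1 transcript of at least 1500 nt, of which 57.5% to 63.0% lay within 10% of a whole step per sample, so it is approximate. Motifs were counted in the RefSeq promoter table on both strands. Other steps used Python 3.11.15 with matplotlib 3.10.9, numpy 2.4.6 and pandas 2.3.3.

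The 10 genes, the lists and the tests were chosen with earlier results of these data known. Named were the 10 genes, Zfp90, the other zinc genes with the largest rise and fall, the 2 genes of largest difference in each pathway list, the 5 genes nearest to Mt1 and to Mt2 in profile and the neighbours of Mt1, and 1 of all these genes is not reported here. The remaining genes named (Slc39a9, Mt3, Mt4, Gm45774, Pip5k1a, Fkbp5, Cebpd, Socs3, Stat3 and markers) were chosen after their values were seen, as was the comparison of transcripts for shared words. Alternatives were a pseudocount of 0.1, other filters, quantile normalization, median ratio scaling, a replicate block, a fit without the trend and leaving out samples. Leaving out the 2 samples with a deviating genotype field, the colonocyte sum without Car1, the scaling of the replicate deviations and the settings for the neighbours were added after the data were seen.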

Additional observations from a re-analysis of the deposited data

How the results depend on the processing

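In the 13 alternatives that kept at least 2 mice per genotype, Mt1 was past the threshold in 13, with log2 fold changes from 2.64 to 2.83, on the contrast by which it was picked. Mt2 was past it in 0 of 13 (0.37 to 0.61) and Slc30a10 in 1 of 13 (0.76 to 1.06), that without Zfp90fl/fl replicate 3, so leaving out 1 sample gave 1 to 2 of the 10 genes past the threshold. Signs turned for genes near 0: Mtf1 (-0.068 to 0.0016 with 1 sample left out, above 0 without Zfp90fl/fl replicate 1), Slc30a5 (-0.20 to 0.037, above 0 without Zfp90ΔIEC replicate 3, and 0.051 without Zfp90ΔIEC replicates 2 and 3) and Slc39a8 (-0.024 to 0.15, below 0 without Zfp90ΔIEC replicate 1). Over all genes, 23 were past the threshold, against 13 with a pseudocount of 0.1, 15 with no filter, 42 without Zfp90ΔIEC replicates 2 and 3, which leaves 1 mouse that is assumed to vary like the controls, and 10 to 21 with 1 sample left out, where the 10 came without Zfp90fl/fl replicate 2. With the replicate number as a block it was 47, of which 18 were shared with the 23. The block changed no call of the 10 genes and put 1 STAT3 and acute phase gene past the threshold. Samples with the same number deviated together by correlations of 0.19, 0.11 and 0.08, and every sample correlated best with its own number. Whether the numbers mark pairs is not known, and the main fit did not take them as pairs. Mt1 and Mt2 deviated in the same direction in 3 of 6 samples after quantile normalization. With 1 sample left out the median of the copper genes ran from -0.096 to 0.011 and that of the glucocorticoid genes from -0.045 to 0.13. The median of the STAT3 and acute phase genes was -0.51 with a filter on the mean, at 1 FPKM. With the looser motif TGCNCNC, 51.0% of all windows held a match. The cause of these shifts was not tested. The share of Mt1 kept within the spread between replicates in the 8 alternatives run. The 3 mice per genotype and the unknown true depth limit the precision.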
